A study of Mus musculus with 4 samples.

Results

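The CC chemokines described here are 10 genes, Ccl2, Ccl3, Ccl4, Ccl6, Ccl7, Ccl8, Ccl9, Ccl11, Ccl12 and Ccl24, taken by symbol from the 32285 genes of the count tables, where each symbol matched 1 gene. They were measured by single-cell RNA sequencing in the stromal vascular fraction (SVF) of brown fat (brown adipose tissue, BAT) from mice, the pellet of immune cells, fibroblasts, adipocyte precursors and vascular cells that remains when mature adipocytes are taken away. The study asked which cells of BAT differ between lean and obese mice, and the question here was which cells held each chemokine transcript and how its level differed between the libraries. There was 1 library per group, each a pool of the SVF of 3 mice by the study's account, so no difference could be tested. Every interval below is a 95% interval for counting error only and does not cover the spread between cells, mice or preparations.

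The strain was C57BL6/J by the labels and the study used male mice harvested after fasting. Wild-type (WT) mice were 10 weeks old and on normal diet. The db/db mice, which carry a mutated leptin receptor gene in all their cells and become obese and diabetic, were 8 weeks old (8-week db/db, db/db 8w in the plots) or 16 weeks old (16-week db/db, db/db 16w in the plots). Mice fed a high-fat diet (HFD) carried no mutation. Their label gave an age of 10 weeks, while the study started the diet at 10 weeks of age and kept it for 10 weeks, so their age is not settled. Age, genotype and diet differed together between the groups and cannot be told apart from library preparation. By the sex-linked transcripts given below, sex may differ as well in 16-week db/db. Rows of 4 values follow this order of libraries, written as library order: WT, 8-week db/db, 16-week db/db, HFD. The 3 comparisons with WT all share the WT library.

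CC chemokines are small secreted proteins that guide leukocytes through G protein-coupled receptors on the target cell. Ligands of the monocyte chemoattractant type (Ccl2, Ccl7, Ccl12) draw monocytes from blood through Ccr2, the macrophage inflammatory proteins (Ccl3, Ccl4) and the related Ccl6 and Ccl9 draw monocytes and other leukocytes, in part through Ccr1, and the eotaxins (Ccl11, Ccl24) act on eosinophils through Ccr3. In adipose tissue they are known mainly for the recruitment of monocytes that become tissue macrophages in obesity, and for the eosinophils of lean tissue.

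The genes lie in 3 places in the GRCm38 genome, all of them protein-coding. Ccl2, Ccl7, Ccl11, Ccl12 and Ccl8 follow each other within 81.2 kb of chromosome 11 on the plus strand, from chr11:82035571 (the start of Ccl2) to chr11:82116799 (the end of Ccl8). Ccl9, Ccl6, Ccl3 and Ccl4 lie within 91.8 kb of the same chromosome, from chr11:83572919 to chr11:83664683, and Ccl4 is the only one of the 4 on the plus strand. Ccl24 stands alone at chr5:135569937-135573049. Promoter windows of RefSeq (build GRCm38.p6) were at hand for 5 of the 10 genes, Ccl3, Ccl6, Ccl8, Ccl9 and Ccl12. The 250 bases before the start site are shown for Ccl8 and Ccl12, the genes found below to be higher in perivascular than in lipid-associated macrophages, and for Ccl9, whose level differed less between these subsets. Capitals mark a match to 1 of 5 motifs searched on both strands of these windows, and matches of different motifs did not overlap.
Ccl8, chr11:82114935-82115184, plus strand: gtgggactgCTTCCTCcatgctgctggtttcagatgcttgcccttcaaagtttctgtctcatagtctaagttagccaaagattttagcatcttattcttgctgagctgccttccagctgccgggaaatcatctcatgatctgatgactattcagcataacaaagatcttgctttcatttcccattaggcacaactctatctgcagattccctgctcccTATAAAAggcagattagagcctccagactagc
Ccl12, chr11:82101595-82101844, plus strand: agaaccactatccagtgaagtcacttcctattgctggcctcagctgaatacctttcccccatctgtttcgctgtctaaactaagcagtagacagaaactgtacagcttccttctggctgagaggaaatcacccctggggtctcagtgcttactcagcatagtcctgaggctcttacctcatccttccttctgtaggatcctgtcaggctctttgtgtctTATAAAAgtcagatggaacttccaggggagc
Ccl9, chr11:83578637-83578886, minus strand: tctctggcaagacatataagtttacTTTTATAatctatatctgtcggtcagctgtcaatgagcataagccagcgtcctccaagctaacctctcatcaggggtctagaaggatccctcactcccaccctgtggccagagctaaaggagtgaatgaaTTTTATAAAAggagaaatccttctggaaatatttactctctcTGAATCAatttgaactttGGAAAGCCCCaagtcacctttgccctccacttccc
The TATA box (TATAAAA) began at position -32 from the start site in Ccl8 and at -31 in Ccl12, whereas in Ccl9 it began at -92, with matches on the other strand at -225 and -95. This motif was present in 4.98% of the 32851 promoter windows of the same length. The PU.1 motif (GAGGAAG, 10.6% of windows) had 1 match, in Ccl8, and the AP-1 motif (TGANTCA, 6.75%) and the kappa-B motif (3.90%) had 1 match each, both in Ccl9. The C/EBP motif (TTGCNNAA, 9.56%) had no match in the 5 windows, and Ccl3 and Ccl6 had no match to any of the 5 motifs.

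Quality limits kept 5944, 11648, 5833 and 5462 cells in library order, with a median of 2733 to 6218.5 unique molecular identifiers (UMIs, each marking 1 captured transcript) per cell. The limits, among them a mitochondrial share below 15%, passed 31.3% of the barcodes of HFD against 63.6% to 89.5% in the other 3 libraries. The 16-week db/db library stood apart. It held Xist, which is transcribed in female cells, at 207 counts per 1000000 UMIs (CPM) against 0.187 to 0.688 in the others, and 4 Y-linked genes at 17.7 CPM against 164 to 188. These values are at odds with the study's account of male mice. Differences of 16-week db/db from WT therefore cannot be told apart from sex either. Between 45 and 120 cells per library carried a barcode that another library also used, and leaving them out changed no count of genes given below.

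Cells were assigned to a source by their raw UMIs for 9 fixed marker lists. A cell entered a gate when 1 list gave at least 3 UMIs over at least 2 genes and at least 75% of all list UMIs. The macrophage gate held 1135, 2585, 2376 and 1450 cells in library order, and the stromal gate, which takes fibroblasts and adipocyte precursors, held 4371, 7059, 1204 and 1686. As the gates were built from the 9 macrophage and 7 stromal markers, the levels of these markers are no separate check of the cell types. The endothelial gate held over 50 cells in the 3 libraries of obese mice, the T/NK gate in both db/db libraries and the neutrophil gate in 8-week db/db. Levels are given as CPM of all UMIs of a gate. As UMIs were read at the 3′ end of each transcript, they count molecules and were not divided by gene length.

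In WT, macrophages held most of the family. The 10 genes together took 1.27% (1.26% to 1.27%) of all macrophage UMIs and 0.151% (0.150% to 0.152%) of stromal UMIs. Of the 10 genes, 9 were at least 2-fold higher in macrophages than in stromal cells of WT, and Ccl11 alone was at least 2-fold lower. The same rule of size (20 CPM in at least 1 of the gates) called 19% of all genes higher and 23.7% lower. In 8-week db/db the counts were again 9 higher and 1 lower (background 17.5% and 22.6%). In 16-week db/db 7 were higher and 1 lower (17% and 25.9%), and in HFD 5 of the 9 genes that reached 20 CPM were higher and 2 lower (16.1% and 21.4%).

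Ccl11, or eotaxin, was the stromal member. Its stromal level was 437, 423, 988 and 432 CPM in library order, against 11.5, 4.73, 0.741 and 5.26 CPM in macrophages. The stromal gate held 98.6%, 97.3%, 98.0% and 93.4% of all its UMIs in these libraries, the steadiest source of the 10. It was seen in 26.8%, 27.9%, 55.6% and 33.4% of stromal cells after 1000 UMIs had been drawn from each cell (thinning), which makes shares comparable across depths, and in 66.2%, 50.5%, 80.3% and 78.1% before thinning. In macrophages it was seen in 1.51% or fewer of thinned cells.

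Ccl2 and Ccl7, neighbouring genes and ligands of Ccr2, were expressed in both sources. In macrophages Ccl2 stood at 1559, 1346, 742 and 95.3 CPM in library order, and in stromal cells at 460, 505, 164 and 128 CPM. Ccl7 stood at 914, 829, 101 and 29.3 CPM in macrophages and at 441, 403, 149 and 74.3 CPM in stromal cells. The ratio of levels between the sources therefore turned over for Ccl7. Its log2 ratio of macrophages over stromal cells was 1.05 (1.01 to 1.09) in WT and 1.04 (1.01 to 1.08) in 8-week db/db, and -0.57 (-0.70 to -0.44) in 16-week db/db and -1.34 (-1.54 to -1.15) in HFD. For Ccl2 it was positive in WT (1.76), 8-week db/db (1.41) and 16-week db/db (2.18) and negative in HFD (-0.42, -0.54 to -0.30). Of all Ccl2 UMIs, macrophages held 41.6% in WT, 55.7% in 8-week db/db, 91.5% in 16-week db/db and 36.4% in HFD. The UMIs of Ccl7 split otherwise than its levels in WT and 16-week db/db. Macrophages and stromal cells held 7103 and 15531 of them in WT and 14214 and 11878 in 8-week db/db. In 16-week db/db they held 1764 and 699, and in HFD 312 and 713. Macrophages were 40.7% of cells in 16-week db/db and 19.1% in WT.

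Ccl8, which in mouse is a ligand of Ccr8, had no single source in all libraries. Its macrophage level of 1729 CPM in WT was 23.6-fold its stromal level of 73.1 CPM. In 8-week db/db the levels were 1255 and 187 CPM (6.72-fold), while in 16-week db/db (136 and 148 CPM) and HFD (54.5 and 59.9 CPM) the log2 ratios of -0.12 (-0.24 to 0.01) and -0.14 (-0.31 to 0.03) did not separate the sources beyond counting error. The other 5 genes, Ccl3, Ccl4, Ccl6, Ccl9 and Ccl24, were 73.0- to 99.7-fold higher in macrophages than in stromal cells in WT and 7.73- to 29.6-fold in 16-week db/db and HFD. Ccl12 was 65.8-fold higher in WT, on 334 macrophage and 23 stromal UMIs.

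**Figure D1:**
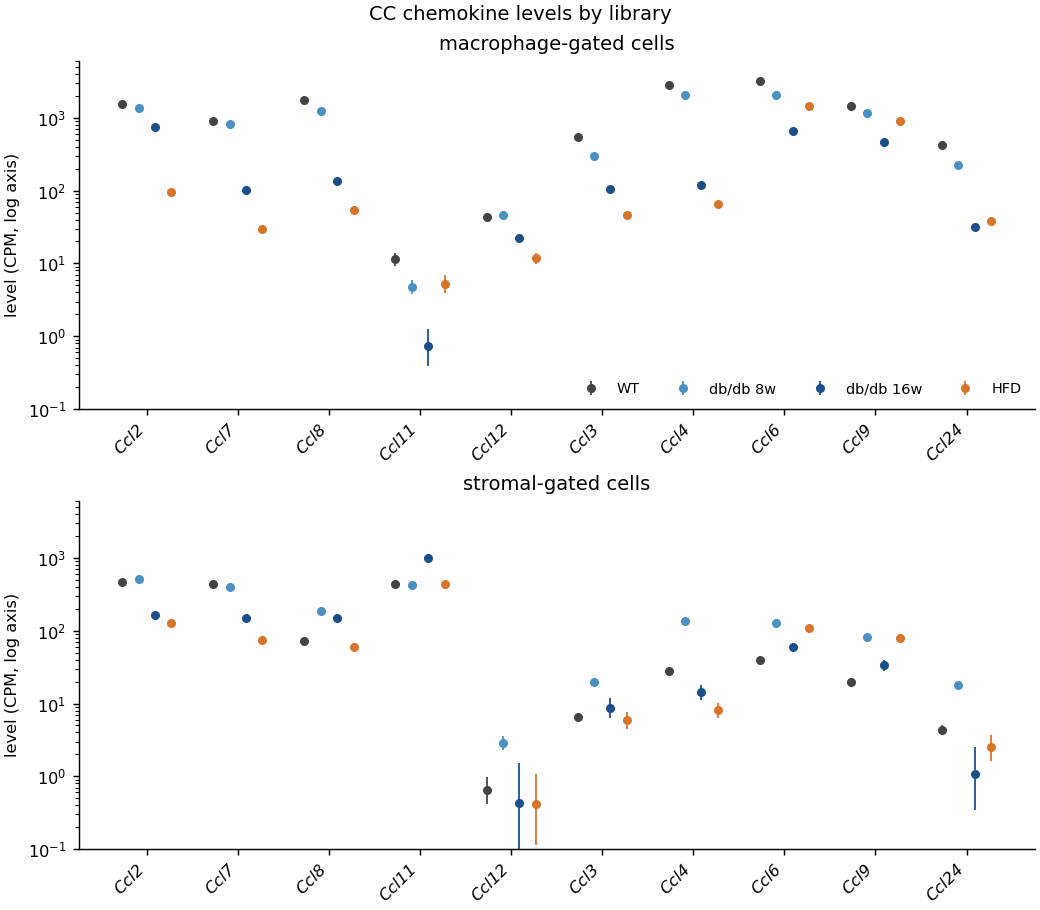
Level of each CC chemokine (CPM, log axis) in macrophage-gated cells (top) and stromal-gated cells (bottom), 1 point per library with its 95% counting interval. In macrophages the 16-week db/db and HFD points lie well below those of WT and 8-week db/db for most genes, such as Ccl4 at 2787, 2054, 119 and 66.3 CPM, while Ccl11 is high in stromal cells alone.

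How far a low stromal level can be read depended on the macrophage transcripts found in stromal cells. Tyrobp, Fcer1g and Ctss, macrophage genes chosen for this check after the data were seen and used in no gate, had stromal levels of 1.32% to 1.43% of their macrophage levels in WT, 6.02% to 6.53% in 8-week db/db, 6.27% to 6.71% in 16-week db/db and 7.67% to 8.47% in HFD. The stromal level of Ccl6 was 1.23%, 6.29%, 9.10% and 7.57% of its macrophage level in the same order, and that of Ccl9 was 1.37%, 7.0%, 7.28% and 8.72%. Ccl3, Ccl4, Ccl12 and Ccl24 ranged from 1.0% to 1.52% in WT and from 6.19% to 8.04% in 8-week db/db. These 6 genes lay near the level of the check genes there, so their stromal UMIs are not read as stromal expression. Ccl3 (12.9%, 9.66% to 17.0%) and Ccl4 (12.1%, 9.44% to 15.3%) lay above that level in HFD, on 57 and 77 stromal UMIs, and Ccl4 also in 16-week db/db (12.1%, 9.31% to 15.4%), on 67 UMIs, all of them in 5% of the cells. Ccl6 lay above it in 16-week db/db as well (9.10%, 8.05% to 10.3%), on 276 UMIs, also all in 5% of the cells. Leaving out predicted doublets, barcodes that may hold several cells, moved the stromal log2 ratio to WT in 16-week db/db. It went from 0.58 to -1.46 for Ccl6 and from -0.97 to -6.57 for Ccl4, and the cause was not tested. The stromal levels of Ccl8 (4.23%, 14.9%, 108% and 110%), Ccl2 (29.5%, 37.5%, 22.1% and 134%) and Ccl7 (48.3%, 48.6%, 149% and 254%) exceeded the check genes in every library.

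**Figure D2:**
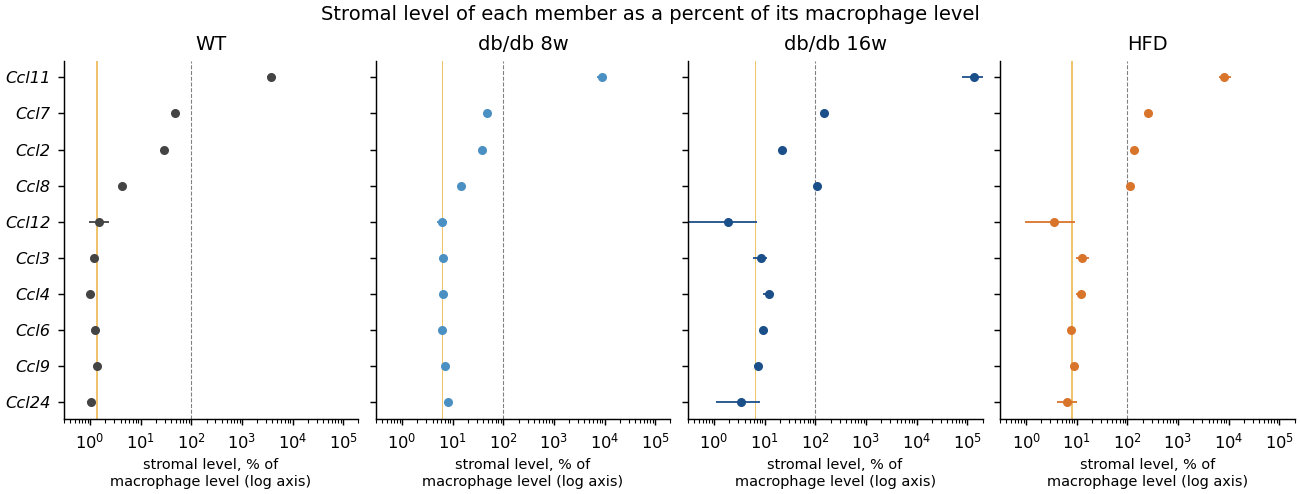
Stromal level of each member as a percent of its macrophage level (log axis), 1 panel per library, with 95% counting intervals. The shaded band is the range of Tyrobp, Fcer1g and Ctss (1.32% to 1.43% in WT, 7.67% to 8.47% in HFD) and the dashed line marks 100%. Ccl11, Ccl7, Ccl2 and Ccl8 stand right of the band in every panel, and the other 6 genes lie on or near it in WT and 8-week db/db.

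Compared with WT macrophages, the CC chemokines were mostly lower in macrophages of 16-week db/db and HFD, and differed by less than 2-fold in 8-week db/db over all macrophages, although not in each tertile of cells described further on. Ccl11 stayed below 20 CPM in macrophages throughout and was left out of these counts. Of the 9 members that reached 20 CPM in either macrophage sum, 8 were at least 2-fold lower in 16-week db/db, where 25.4% of all genes tested were, and 8 were at least 2-fold lower in HFD, where 11.2% of all genes were. None of the 9 was at least 2-fold higher in these libraries, against 22.5% and 14.7% of all genes. In 8-week db/db no member was at least 2-fold lower or higher, against 5.1% and 5.45% of all genes. The median log2 ratio of the members was -0.44, -2.38 and -3.58 in 8-week db/db, 16-week db/db and HFD, and that of all genes tested was 0.06, -0.07 and 0.20. The 10 genes together took 0.927%, 0.236% and 0.271% of macrophage UMIs in these libraries. Beside these differences, the summed level of 9 immediate-early and heat-shock genes (Fos, Fosb, Jun, Junb, Egr1, Atf3, Hspa1a, Hspa1b and Dnajb1), which respond to dissociation of the tissue among other stimuli, was 23844, 11195, 3518 and 4923 CPM in macrophages, in library order. Their part in the result as a whole was not tested, and values by level of these genes are given further on. The stromal marker list in the macrophage gate was at 851, 434, 23.0 and 354 CPM and the list of 3 monocyte genes at 175, 68.6, 9.64 and 16.2 CPM.

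Ccl3 and Ccl4, which activated macrophages secrete, showed wide ratios. Ccl4 stood at 2787 (2750 to 2824), 2054 (2032 to 2075), 119 (114 to 124) and 66.3 (61.5 to 71.4) CPM in macrophages in library order. Its log2 ratio to WT was -0.44 in 8-week db/db, -4.55 (-4.62 to -4.49) in 16-week db/db and -5.39 (-5.50 to -5.29) in HFD, the furthest of the 9 members in both of these libraries. Ccl3 stood at 549, 300, 106 and 45.9 CPM, with log2 ratios of -0.87, -2.38 (-2.46 to -2.30) and -3.58 (-3.72 to -3.45). The 4 intervals of each gene did not overlap.

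Among the monocyte chemoattractants, Ccl2 and Ccl12 differed least from WT in 16-week db/db. For Ccl2 the log2 ratio was -0.21 in 8-week db/db, -1.07 (-1.11 to -1.04) in 16-week db/db and -4.03 (-4.13 to -3.94) in HFD, so that 16-week db/db and HFD macrophages differed from each other by 742 against 95.3 CPM. Ccl7 had ratios of -0.14, -3.18 (-3.26 to -3.11) and -4.96 (-5.13 to -4.80). Ccl8 had ratios of -0.46, -3.67 (-3.73 to -3.60) and -4.99 (-5.11 to -4.87). Ccl12, the least abundant of the 9 at 43.0, 46.1, 22.5 and 11.8 CPM, had ratios of 0.10 (-0.09 to 0.29), -0.93 (-1.15 to -0.72) and -1.86 (-2.17 to -1.56). The small ratios of 8-week db/db depended on how cells were weighted. With the mean of each cell's own CPM in place of the pooled sum, they were 0.28 for Ccl2, 0.42 for Ccl7, 0.04 for Ccl8 and 0.04 for Ccl4.

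Ccl6 and Ccl9, neighbouring genes that mouse macrophages express at rest, kept higher levels in HFD than in 16-week db/db. Ccl6 stood at 3222 (3182 to 3262), 2058 (2037 to 2080), 648 (636 to 660) and 1454 (1431 to 1477) CPM, and Ccl9 at 1429 (1402 to 1456), 1152 (1136 to 1168), 458 (448 to 468) and 905 (887 to 923) CPM in library order. The order of the libraries was the same for both genes, with 16-week db/db lowest. Their log2 ratios to WT were -2.31 and -1.64 in 16-week db/db and -1.15 and -0.66 in HFD. Of the 9 members, Ccl24 also had a lower ratio in 16-week db/db than in HFD, and the remaining 6 were lower in HFD. Ccl24, an eotaxin made by macrophages, stood at 417, 226, 31.6 and 38.2 CPM, with ratios of -0.88, -3.72 (-3.85 to -3.59) and -3.45 (-3.60 to -3.30). The intervals of the Ccl24 level in 16-week db/db (29.1 to 34.4 CPM) and HFD (34.6 to 42.1 CPM) all but met.

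**Figure D3:**
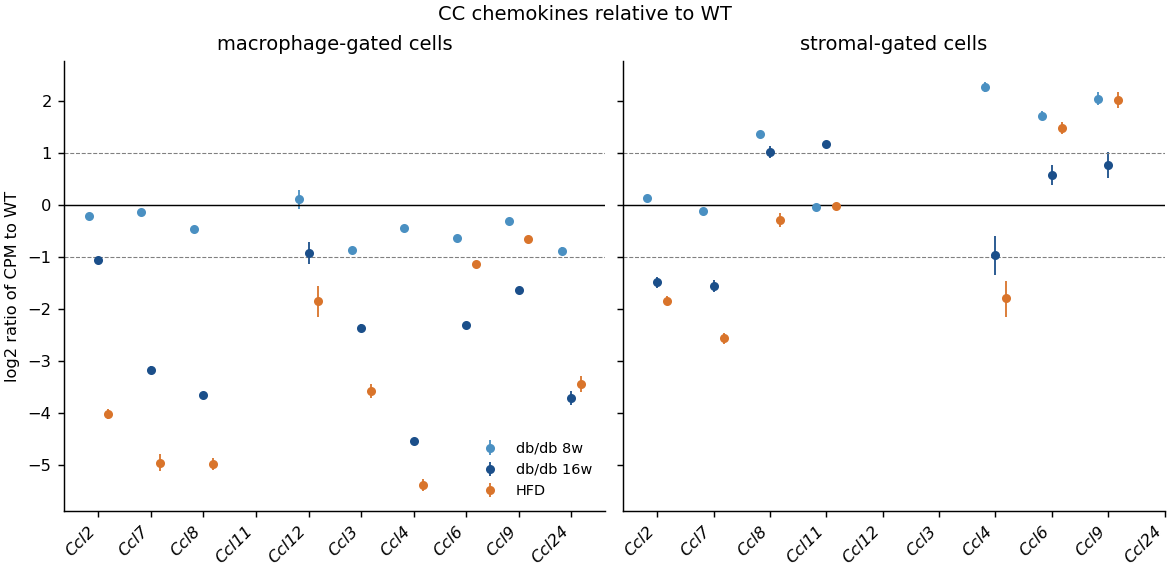
Log2 ratio of the level in each obese library to WT, for members that reached 20 CPM in either sum, in macrophage-gated (left) and stromal-gated cells (right), with 95% counting intervals. Dashed lines mark a ratio of 2-fold. In macrophages the 8-week db/db points lie between -0.88 and 0.10 and the HFD points reach -5.39 for Ccl4, while in stromal cells Ccl8 and Ccl11 lie above 1 in 16-week db/db and Ccl2 and Ccl7 below -1.

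Over all cells of a library the ratios differed from those within macrophages, which made up 19.1% of cells in WT and 22.2% to 40.7% in the other libraries. Ccl2 stood at 647, 775, 535 and 85.6 CPM of all UMIs in library order, a log2 ratio of -0.27 (-0.30 to -0.24) in 16-week db/db against -1.07 within macrophages. Ccl9 stood at 298, 515, 336 and 425 CPM, above WT in all 3 libraries of obese mice, while its level within macrophages was below WT in each. Ccl6 was at 644 CPM in WT and 673 CPM in HFD. Ccl4 stood at 582, 885, 89.2 and 39.4 CPM, above WT in 8-week db/db (0.60, 0.58 to 0.63), where it was below WT within macrophages, and below WT in the other 2 libraries.

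The macrophages of the 4 libraries were of different kinds. Macrophage-gated cells were split by raw UMIs of a perivascular list (PVM: Lyve1, Folr2, Cd163, Cbr2 and F13a1) and a lipid-associated list (LAM: Trem2, Cd9, Gpnmb, Spp1 and Lgals3). PVM made up 85.6% of macrophages in WT (971 cells), 49.3% in 8-week db/db (1274), 8.84% in 16-week db/db (210) and 2.14% in HFD (31), and LAM 2.64% (30 cells), 32.8% (847), 76.0% (1805) and 82.6% (1197). Values for LAM of WT and PVM of HFD therefore rest on 30 and 31 cells.

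Ccl8 and Ccl12, whose promoter windows are shown above, as well as Ccl24 and Ccl7, were higher in PVM than in LAM of every library. Ccl8 stood at 2011, 3237, 2197 and 227 CPM in PVM and at 104, 89.8, 33.4 and 37.4 CPM in LAM in library order. Its log2 ratio of PVM over LAM was 4.27 (3.79 to 4.80), 5.17 (5.07 to 5.28), 6.04 (5.89 to 6.18) and 2.60 (1.99 to 3.16). For Ccl12 it was 3.96 (1.47 to 9.27), 4.96, 3.78 and 2.47 (0.80 to 3.76), for Ccl24 4.69, 1.90, 4.22 and 2.85, and for Ccl7 1.73, 2.84, 0.71 and 2.78. Ccl9 differed less between the subsets, with ratios of 0.00 (-0.13 to 0.14), 0.30, 0.13 (-0.03 to 0.28) and -0.45 (-0.78 to -0.14). Ccl6 was higher in PVM in WT (1.05), 8-week db/db (1.70) and 16-week db/db (2.04) and not in HFD (0.01, -0.21 to 0.22).

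Within PVM the comparison of 16-week db/db with WT gave another result than over all macrophages for 4 of these genes. The Ccl8 level of PVM was 2197 (2087 to 2311) CPM in 16-week db/db and 2011 (1976 to 2046) CPM in WT, a log2 ratio of 0.13 (0.05 to 0.21), against -3.67 over all macrophages. Ccl12 was higher in PVM of 16-week db/db, at 165 against 47.6 CPM (1.79, 1.47 to 2.11), and in PVM of 8-week db/db, at 107 CPM (1.16, 0.96 to 1.36). The ratios of Ccl6 and Ccl24 in PVM of 16-week db/db were -0.64 (-0.71 to -0.56) and -0.84 (-1.06 to -0.62). By contrast Ccl4 was also lower within PVM, at 2140 CPM in WT, 162 CPM in 16-week db/db and 56.7 (22.8 to 117) CPM in HFD, and Ccl7 at 967, 149 and 130 CPM. Ccl2 was lower in PVM of 16-week db/db too, at 411 against 1579 CPM in WT (-1.94, -2.12 to -1.77). The ratios of Ccl3 and Ccl9 there were -1.75 and -1.48. In the 31 PVM of HFD, Ccl8 stood at 227 (151 to 328) CPM, below the level in PVM of the other libraries.

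Within LAM, Ccl2 ran another way than over all macrophages. Its level was 395 (330 to 470) CPM in WT, 567 (551 to 583) in 8-week db/db, 759 (746 to 773) in 16-week db/db and 76.6 (71.1 to 82.3) in HFD, so that 16-week db/db was higher than WT by a log2 ratio of 0.94 (0.69 to 1.20). LAM held 91.1% of all macrophage Ccl2 UMIs in 16-week db/db and 1.06% in WT, where PVM held 82.6%. In 16-week db/db Ccl2 was the only 1 of the 9 members that was higher in LAM than in PVM, with a log2 ratio of PVM over LAM of -0.89 (-1.06 to -0.72). Ccl4 in LAM stood at 4365, 1632, 106 and 55.0 CPM and Ccl3 at 591, 189, 90.3 and 40.1 CPM, so both were lower in each library of obese mice also within this subset. Ccl6 in LAM differed little between WT (1657, 1521 to 1803 CPM) and HFD (1452, 1428 to 1476 CPM).

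**Figure D4:**
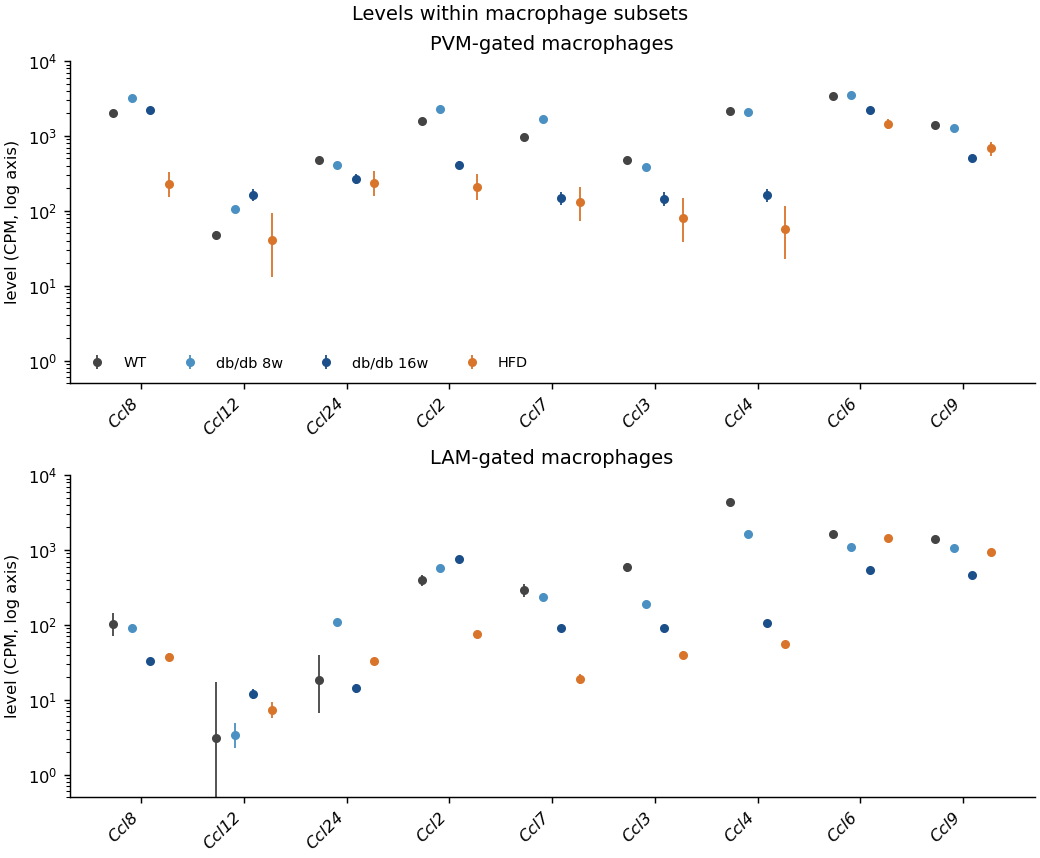
Level (CPM, log axis) of 9 members in PVM-gated (top) and LAM-gated macrophages (bottom), 1 point per library with its 95% counting interval. Ccl8 in PVM stands at 2011, 3237 and 2197 CPM in WT, 8-week db/db and 16-week db/db, Ccl4 is low in 16-week db/db and HFD in both subsets, and Ccl2 in LAM is highest in 16-week db/db at 759 CPM.

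In stromal cells the members did not move one way. Of the 7 members that reached 20 CPM, 4 were at least 2-fold higher in 8-week db/db than in WT (Ccl8, Ccl4, Ccl6 and Ccl9) and none lower, against 4.38% and 2.98% of all genes. Ccl4, Ccl6 and Ccl9 of these lay at the level of the macrophage check genes, which was itself higher in the libraries of obese mice. In 16-week db/db 2 were higher (Ccl8 and Ccl11) and 2 lower (Ccl2 and Ccl7), against 13.7% and 15% of all genes, so the members split evenly between the directions. In HFD 2 were higher (Ccl6 and Ccl9) and 3 lower (Ccl2, Ccl7 and Ccl4), against 10.5% and 7.99%. The stromal levels of Ccl6 and Ccl9 in HFD were 7.57% and 8.72% of their macrophage levels. The check genes lay at 7.67% to 8.47% there, so these 2 are not read as stromal expression. Stromal Ccl4 in WT was at 1.0% of its macrophage level, where the check genes lay at 1.32% to 1.43%. Its lower level in HFD is therefore not read as a change of stromal expression.

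Ccl11 in stromal cells was 2.26-fold higher in 16-week db/db than in WT (log2 ratio 1.18, 1.13 to 1.22) and close to WT in 8-week db/db (-0.05) and HFD (-0.02). Among cells of the committed type, gated on Col15a1, Col4a1 and Col4a2, it stood at 522 (501 to 544), 458 (447 to 469), 1019 (989 to 1049) and 451 (437 to 466) CPM in library order, a log2 ratio to WT of 0.96 (0.89 to 1.04) in 16-week db/db, which is just under 2-fold. Stromal Ccl8 was 2.55-fold higher in 8-week db/db (1.35, 1.29 to 1.42) and 2.02-fold higher in 16-week db/db (1.01, 0.89 to 1.14), the latter at the limit of the rule.

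Stromal Ccl2 and Ccl7 were lower in 16-week db/db (-1.49 and -1.56) and HFD (-1.85 and -2.57) over all stromal cells, and the stromal cell types differed in this. In progenitors, gated on Pi16, Dpp4, Sema3c and Anxa3, both were lower in HFD than in WT, Ccl2 at 36.5 against 253 CPM (-2.79, -3.40 to -2.25) and Ccl7 at 37.8 against 185 CPM (-2.29, -2.88 to -1.76), and 16-week db/db had too few progenitors to describe. In committed cells Ccl2 stood at 78.8 (70.6 to 87.7), 303 (294 to 312), 166 (154 to 178) and 107 (99.9 to 114) CPM, so that all 3 libraries of obese mice lay above WT. Ccl7 stood at 112, 261, 145 and 61.2 CPM in the same cells. In WT both were highest outside the progenitor and committed gates. The 39 WT cells of the activated type, gated on Has1, Ptx3 and Tnfaip6, held Ccl7 at 2223 (2063 to 2391) CPM and Ccl2 at 914 (813 to 1025) CPM, and the stromal cells of no type held 915 and 912 CPM. Activated cells numbered 39 in WT, 22 in 8-week db/db and 0 in 16-week db/db and HFD, and committed cells were 11.9%, 40.5%, 87.6% and 80.5% of stromal cells.

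The members differed in how far their transcripts were concentrated in few cells. The 5% of macrophages with the most UMIs of a gene held 45.8% to 72.7% of Ccl2 UMIs and 42.0% to 87.9% of Ccl4 UMIs in the 4 libraries. For Ccl6 and Ccl9 these were 21.8% to 32.7% and 22.0% to 27%, and the median WT macrophage held 15 Ccl6 UMIs. The highest count in 1 cell was 434 UMIs of Ccl2, in a 16-week db/db macrophage, where the median was 0. Of the 699 Ccl7 UMIs of 16-week db/db stromal cells, 99.4% lay in 5% of the cells and 162 in 1 cell, so the stromal level of Ccl7 there rests on few cells.

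After thinning to 1000 UMIs, a WT macrophage held transcripts of 3.46 of the 10 genes on average, a 8-week db/db macrophage 3.11, a 16-week db/db macrophage 1.23 and an HFD macrophage 1.48. The share of macrophages with at least 2 of the genes was 89.8%, 82.4%, 35.5% and 47.8%. Thinning left out 7, 90, 89 and 0 macrophages with fewer UMIs, and the median depth before it was 5655, 5315, 5867.5 and 5874 UMIs. Ccl6 was seen in 85.9%, 74.4%, 42.2% and 68.0% of thinned macrophages and in 97.2%, 94.1%, 75.0% and 96.0% before thinning. Ccl4 was seen in 34.1%, 42.1%, 5.07% and 5.17% of thinned macrophages (47.2%, 60.2%, 11.7% and 16.7% before), and in 2.07%, 7.80%, 0.368% and 0.534% of thinned stromal cells. Ccl8 was seen in 49.4%, 31.1%, 7.30% and 3.72% (69.6%, 47.1%, 11.9% and 10.1% before).

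Ccl2 and Ccl7, and likewise Ccl3 and Ccl4, were seen together in cells. Other neighbouring pairs are not described here, and Ccl11, the next gene after Ccl7, was held mainly by stromal cells. Ccl7 was seen in 51.3% of the WT macrophages that held Ccl2 and in 12.4% of those that did not, and in 8-week db/db, 16-week db/db and HFD these shares were 57.1% and 12.9%, 20.8% and 1.16%, and 16.4% and 1.5%. The pair behaved alike in stromal cells, with 42.6% and 9.14% in WT. Ccl4 was seen in 68.8% of WT macrophages with Ccl3 and 26.0% of those without it, and in 27.7% and 3.18% in 16-week db/db. Ccl8 and Ccl4 were seen together less often than apart in WT (Ccl4 in 25.5% of cells with Ccl8 and 42.6% without) and in 8-week db/db (32.4% and 46.5%), while in 16-week db/db the shares were 5.99% and 5.0%. All of these are descriptions of cells within 1 library, thinned to 1000 UMIs.

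The level of several members went with the immediate-early and heat-shock genes, and not in the same way in each library. Macrophages of each library were ranked by their share of UMIs in these 9 genes and split into tertiles, a split chosen after the data were seen. Ccl4 stood at 4494, 2191 and 853 CPM in the lowest, middle and highest tertile of WT, and at 23.5, 66.8 and 344 CPM in those of 16-week db/db. Ccl3 stood at 847, 415 and 254 CPM in WT and at 25.8, 66.4 and 288 CPM in 16-week db/db. In WT the lowest tertile was the high one for both genes, and in 16-week db/db the highest tertile. Ccl2 was also highest in the lowest tertile of WT (2280, 1459 and 539 CPM) and of 16-week db/db (915, 715 and 531 CPM). Ccl8 was highest in the highest tertile of 8-week db/db, at 3326 CPM against 381 CPM in the lowest.

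The ratios to WT therefore depended on which cells were compared. In the lowest tertiles, with immediate-early and heat-shock levels of 8972 CPM in WT and 673 CPM in 16-week db/db, the 16-week db/db log2 ratio was -7.58 for Ccl4, -5.04 for Ccl3 and -1.32 for Ccl2. In the highest tertiles (48057 and 9150 CPM) it was -1.31 for Ccl4, 0.18 for Ccl3 and -0.02 for Ccl2. In 8-week db/db the sign turned between the lowest and the highest tertile, from -0.94 to 1.06 for Ccl2, from -1.35 to 1.04 for Ccl4, from -1.11 to 1.53 for Ccl7 and from -1.61 to 1.64 for Ccl12. It also turned for Ccl3 (-2.08 to 0.43), Ccl6 (-1.11 to 0.27), Ccl8 (-1.48 to 0.81) and Ccl9 (-0.52 to 0.25). Ccl24 was below WT in both tertiles (-1.11 and -0.28). The HFD ratio of Ccl4 was -7.09 in the lowest and -2.39 in the highest tertile. Ccl9 varied least, with -1.91 and -1.31 in 16-week db/db and -0.58 and -0.62 in HFD. The lowest WT tertile (8972 CPM) and the highest 16-week db/db tertile (9150 CPM) had nearly equal levels of these genes, and Ccl4 stood at 4494 and 344 CPM in them, Ccl3 at 847 and 288 CPM, Ccl2 at 2280 and 531 CPM and Ccl6 at 3356 and 1021 CPM. The highest tertile of HFD (9677 CPM) held Ccl4 at 163 CPM and Ccl2 at 160 CPM. Tertiles set side by side in this way are opposite ends of their own libraries and were not matched for PVM and LAM. The part of the immediate-early and heat-shock genes in these differences was not tested. In stromal cells of WT the relation ran the other way, as Ccl2 stood at 29.7, 400 and 770 CPM and Ccl7 at 27.3, 416 and 716 CPM from the lowest to the highest tertile.

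In stromal cells, where the immediate-early and heat-shock genes stood at 16352, 11927, 5469 and 11052 CPM in library order, the direction of the Ccl2 ratio turned with the tertile. It was 2.53 in 16-week db/db and 2.76 in HFD in the lowest tertile, and -2.01 and -4.06 in the highest. The lower stromal Ccl2 level of these libraries thus did not hold in the lowest tertile. These tertiles too were set within each library and were not matched for progenitor and committed cells. Ccl7 in HFD likewise went from 1.52 in the lowest to -3.43 in the highest tertile. Stromal Ccl11 in 16-week db/db was above WT in both, by 1.91 and 0.74, as was stromal Ccl8 by 1.65 and 0.92.

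**Figure D5:**
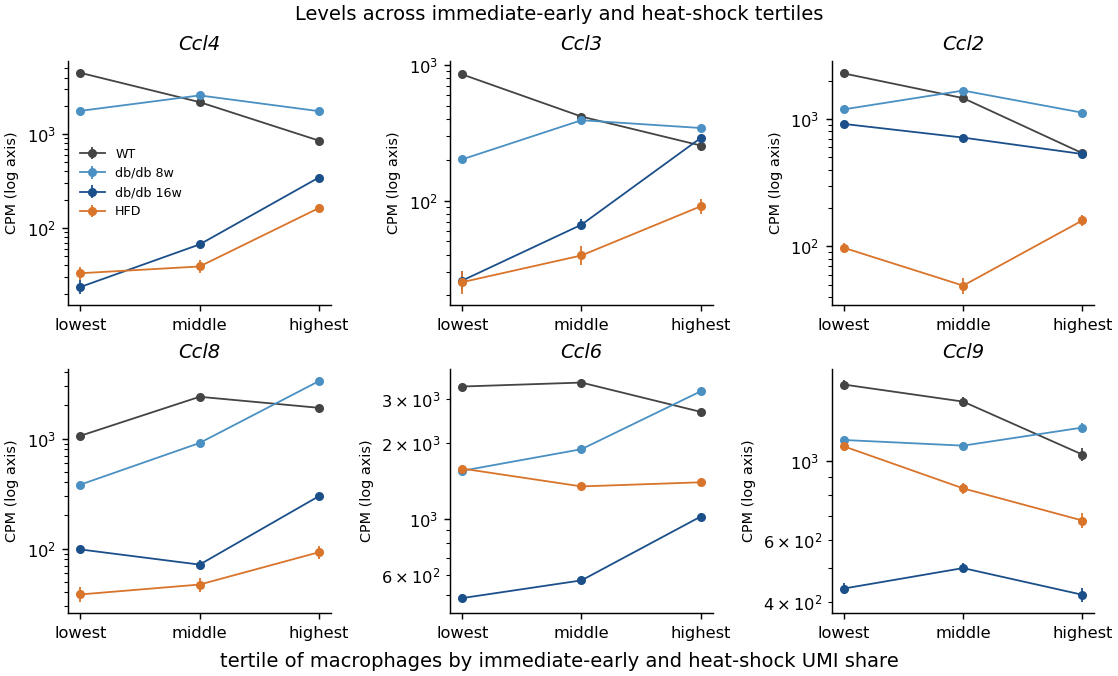
Level (CPM, log axis) of 6 members in macrophages split within each library into tertiles of immediate-early and heat-shock UMI share, with 95% counting intervals. Ccl4 runs down from 4494 to 853 CPM in WT and up from 23.5 to 344 CPM in 16-week db/db, while Ccl9 stays within 420 to 499 CPM in 16-week db/db.

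Members were also found outside the macrophage and stromal gates. The 97 neutrophil-gated cells of 8-week db/db held Ccl6 at 1588 (1401 to 1794) CPM, beside 2058 CPM in macrophages of that library, and Ccl2 at 354 CPM, with macrophage list genes at 1222 CPM in the same cells. In the T/NK gate Ccl4 stood at 120 (71.3 to 190) CPM in 16-week db/db, about the level of macrophages there (119 CPM), and Ccl3 at 80.2 CPM, on 18 and 12 UMIs in 68 cells. In endothelial cells no member passed 101 CPM, the value of Ccl8 in 8-week db/db on 15 UMIs. The cells that entered no gate held Ccl4 at 1904, 1296, 78.6 and 57.7 CPM, Ccl6 at 1362, 1131, 379 and 684 CPM and Ccl9 at 866, 863, 294 and 438 CPM in library order. The macrophage list stood at 3624, 3225, 1257 and 2130 CPM and the stromal list at 4822, 3888, 1030 and 2297 CPM in the same cells, so these are mixed.

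Of 11 other CC ligands, 7 reached 20 CPM in a gate of at least 50 cells in any library. Ccl5, a product of cytotoxic lymphocytes, stood at 2174 and 5618 CPM in T/NK cells of 8-week db/db and 16-week db/db, and at 160, 119, 2.39 and 15.8 CPM in macrophages, so it was again lower in macrophages of 16-week db/db and HFD. In stromal cells Ccl5 stood at 5.28, 15.6, 32.3 and 26.8 CPM in library order. By the rule of size it was higher than WT there in 16-week db/db and HFD. The T/NK marker list in the same stromal cells stood at 0.909, 12.9, 13.2 and 32.7 CPM. Stromal Ccl5 is therefore not read as stromal expression, and its origin was not tested. Ccl21a, which guides dendritic cells into lymph vessels, reached 2172 CPM in the 65 endothelial cells of 8-week db/db and was at 0 UMIs in those of 16-week db/db. Ccl27a reached 40.0 CPM in stromal cells of 16-week db/db, Ccl19 23.9 CPM in stromal cells of HFD and Ccl1 26.7 CPM in T/NK cells of 16-week db/db, while Ccl17 and Ccl22 reached 44.8 and 62.2 CPM in cells of no gate in 8-week db/db.

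Among the receptors, Ccr1, Ccr2 and the atypical receptor Ccrl2 reached 20 CPM in macrophages. These 3 were at least 2-fold lower in 16-week db/db macrophages than in WT, while of the 3 only Ccr2 was so in 8-week db/db and only Ccr1 in HFD. Ccr2, the receptor of Ccl2, Ccl7 and Ccl12, stood at 125, 61.8, 26.8 and 154 CPM in library order. Ccr1 stood at 142, 85.8, 24.8 and 18.3 CPM and Ccrl2 at 322, 437, 34.7 and 172 CPM. Ccr2 in HFD was within 2-fold of WT, in macrophages in which its ligand Ccl2 was low. In stromal cells the decoy receptors Ackr2 (135, 72.9, 12.4 and 18.2 CPM) and Ackr1 (43.5, 22.1, 1.92 and 8.23 CPM), which bind inflammatory CC chemokines without signalling, were at least 2-fold lower in 16-week db/db and HFD. Ccr4, Ccr7 and Ccr8 reached 20 CPM in T/NK cells of 8-week db/db (25.3, 152 and 21.7 CPM), and Ccr3, the receptor of the eotaxins, did not reach it in any gate of at least 50 cells.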

How the data were processed

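Single-cell RNA sequencing of the BAT SVF was analysed in 4 libraries, grouped by the GEO labels. The deposited matrices hold raw UMI counts for each gene and barcode, made by the authors from 10x Genomics 3′ libraries with Cell Ranger on mm10 (version 7.1.0 in the submitters' processing notes, 6.0.0 in the file headers), with no normalization. The limits on cells were 250 to 6000 detected genes, 500 to 30000 UMIs and a mitochondrial share below 15%. Doublets were scored with Scrublet (scanpy 1.11.5), left in, and taken out as 1 alternative. Gates used raw UMIs of 9 marker lists, subsets at least 3 UMIs and 75% of the UMIs of their lists, and gates under 50 and subsets under 25 cells were not described. Levels carry exact Poisson, shares exact Clopper-Pearson and ratios exact conditional binomial 95% intervals (scipy 1.17.1). No test was run. A gene counted as higher or lower by a rule of size, at least 20 CPM in either sum and a 2-fold ratio. The members, lists and comparisons were chosen with earlier results of these data known. All 10 members are named, and of other CC genes those with at least 20 CPM in a gate, except 1 that is not reported here. The ratios and intervals were tried on Poisson counts drawn from the WT macrophage sums, and the gate rule on a few made-up cells. The intervals assume such counts, so this does not cover UMIs concentrated in few cells. Gene positions came from GENCODE M21 (GRCm38), which held 32235 of the 32285 gene IDs.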

Additional observations from a re-analysis of the deposited data

Results flagged for a closer look

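Some members had opposite ratios to WT in 2 sources or 2 libraries. Each of these rests on 1 library per group, and the difference was not tested. Ccl8 in 16-week db/db was lower than WT in macrophages (log2 ratio -3.67) and higher in stromal cells (1.01). Ccl6 in HFD was lower in macrophages (-1.15) and higher in stromal cells (1.48). Ccl4 in stromal cells was higher than WT in 8-week db/db (2.27) and lower in HFD (-1.80). The stromal levels of Ccl6 in HFD (7.57% of its macrophage level) and of Ccl4 in 8-week db/db (6.55%) lay at or near those of the macrophage genes Tyrobp, Fcer1g and Ctss (7.67% to 8.47% and 6.02% to 6.53%), whereas stromal Ccl8 in 16-week db/db lay far above them (108% against 6.27% to 6.71%). Stromal Ccl4 in WT, the base of its ratios, was at 1.0% against 1.32% to 1.43% for these genes. In HFD it was at 12.1%, on 77 UMIs.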

How the results depend on the processing

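With 1 library per group, counting error is the only error given, and the 30 WT LAM, 31 HFD PVM and the T/NK and endothelial gates limit what depth can show. Of 180 counts of genes recomputed under the alternatives, 168 stayed within 1.5 times the main count, and leaving out cells with shared barcodes, chosen after the data were seen, changed none. The counts of genes lower in 16-week db/db and HFD macrophages stayed within that limit in every alternative. Without the filter on low values, 1 member in place of 0 was lower in 8-week db/db macrophages and 7 in place of 4 were higher in 8-week db/db stromal cells. Of the 2 members higher in 16-week db/db stromal cells, 1 was left with the stricter gate, with markers without C1q and collagen genes, with median-of-ratios scaling and with the mean of per-cell CPM. In HFD stromal cells 1 in place of 2 was higher with those markers, without predicted doublets and with the mean of per-cell CPM. Without predicted doublets 4 in place of 2 were lower in 16-week db/db stromal cells. There the Ccl6 ratio went from 0.58 to -1.46 and the Ccl4 ratio from -0.97 to -6.57. In HFD 1 in place of 2 was lower in macrophages than in stromal cells with no mitochondrial limit and with the mean of per-cell CPM. The cause was not tested. Of 476 recomputed ratios, 289 moved by less than the counting interval. Shares moved more often. Of the shares of a gene's UMIs held by macrophages, 99 stayed within the counting interval and 141 did not. The stricter gate moved 39 of these shares and left 1. With thinning to 2000 UMIs or none, 18 shares of cells with a UMI stayed within the interval and 142 did not. For Ccl8, the 16-week db/db macrophage ratio ranged from -3.72 to -2.53, for Ccl4 from -4.65 to -3.63 and for Ccl2 from -1.29 to -0.98, while the HFD ratio of Ccl2 ranged from -4.37 to -3.23. Median-of-ratios scaling moved all ratios of HFD macrophages by 0.16 and the share of higher genes among all genes called there from 56.6% to 43.4%, with the members lower under both. No paired analysis was possible because each group had 1 library.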
